A study of Mus musculus with 2 samples.

Results

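The cDC1s described here are the type 1 conventional dendritic cells among the dendritic cells (DCs) of mouse skin-draining lymph nodes. They were the cells that the study's antibody-based classification named cDC1, 813 of 11067 cells with expression values. Of these, 578 came from naive mice and 235 came from mice immunized with papain. Each cell had been profiled by droplet single-cell RNA sequencing together with 12 antibodies carrying DNA barcodes, so that surface protein and mRNA were read from the same cell. The class rested on the antibody reads, and the mRNA values were not part of it.

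cDC1s are the DC subset specialised for taking up dead cells and for presenting their antigens on MHC class I to CD8+ T cells, a process called cross-presentation. Their development depends on the transcription factors IRF8 and BATF3, and they carry the chemokine receptor XCR1, the dead cell receptor CLEC9A and, in skin, the integrin CD103. After picking up antigen in the skin they mature, gain CCR7 and move to the draining node, where they are also known as a source of IL-12.

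The naive library was made from unimmunized B6 mice and the papain library from B6 mice 1 day after ovalbumin (OVA) and papain, a protease allergen, had been injected into both rear footpads. In both, live cells with high MHC class II and CD11c and without B220 had been sorted, a gate that holds mainly migratory DCs. According to the study's methods the naive cells were pooled from several skin-draining nodes and the papain cells came from the popliteal nodes, while the labels name popliteal nodes for both, so the site of the node and the immunization cannot be told apart. Each condition was 1 library. No difference between conditions therefore had a replicate check, no test was made, and every interval below is a 95% interval that covers counting error only.

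The cDC1s held 9494369 unique molecular identifiers (UMIs, each standing for 1 captured mRNA) in the naive library and 3072525 in the papain library. The median cell had 15806.5 UMIs in naive and 12399 in papain mice, against medians of 10767.5 to 15167 and of 11351 to 18290 in the other classes of the same libraries. Those classes were Langerhans cells and 3 groups of type 2 DCs (cDC2s) with low, intermediate and high CD301b. Of 3042 naive cells in a class, 19.0% (exact interval 17.6 to 20.4) were cDC1s, and of 7306 papain cells, 3.22% (2.82 to 3.65) were.

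The antibody barcodes that separated the cDC1s are printed here because each surface value below is a count of one of these 15-base DNA tags, written 5′ to 3′:
XCR1: tccattacccacgtt
CD103: ttcattagcccgctg
CD172a: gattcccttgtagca
CD326: acccgcgttagtatg
CD301b: cttgccttgcgattt
CD11b: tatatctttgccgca
CD24: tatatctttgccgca
The antibodies to CD11b and CD24 were listed with the same barcode. Their counts ran together over the cDC1s, with a Pearson correlation of the natural log counts of 0.991 in naive and 0.990 in papain cells, and they are not read here as separate markers.

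On the surface, cDC1s were the XCR1 and CD103 class. The values are on the deposited natural log scale, in which an antibody's count is set against the geometric mean of all 12 antibodies in that cell, and they describe the class rather than test it, because they made it. The median XCR1 value was 1.26 (quartiles 0.882 and 1.58) in naive cDC1s, and the medians of the other classes were 0.111 to 0.141. In papain cDC1s it was 1.13 (0.790 and 1.38), against 0.0346 to 0.109. CD103, the αE integrin that binds E-cadherin of epithelia, had a median of 1.30 (0.961 and 1.57) in naive and 0.838 (0.348 and 1.21) in papain cDC1s, and 0.135 to 0.211 and 0.0828 to 0.130 in the other classes. An XCR1 value above the 95th percentile of the other classes was held by 86.9% of the naive and 96.2% of the papain cDC1s.

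CD172a, the signal regulatory protein that marks cDC2s, was low on cDC1s, with medians of 0.123 in naive and 0.197 in papain cells against 0.751 to 1.75 and 0.989 to 1.99 elsewhere. CD301b, the lectin that divides the cDC2 groups, had medians of 0.0579 and 0.0746. CD326, the adhesion molecule EpCAM, lay between the DC groups and the Langerhans cells in naive cDC1s, with a median of 1.63, and was 0.436 in papain cDC1s. Langerhans cells had 3.42 and 3.40. The MHC class II value was lower than in any other class. It was 4.73 against 5.12 to 5.51 in naive and 3.97 against 4.14 to 5.20 in papain mice. This value is relative to the other antibodies of the same cell. Naive cDC1s had a median of 10700.5 antibody counts per cell, against 6212.5 to 8765.5 in the other classes. The lower value therefore does not show less MHC class II on the surface.

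**Figure D1:**
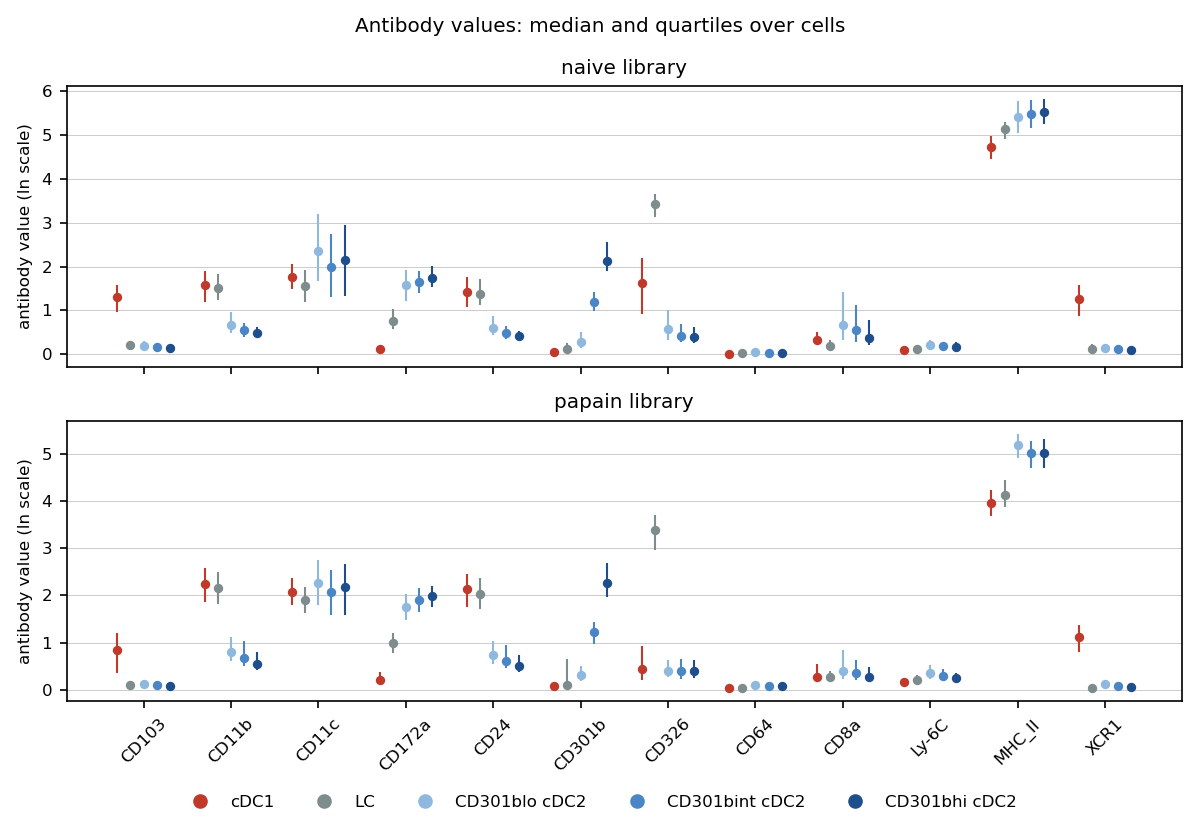
Antibody values of the 5 classes in the naive and the papain library, on the deposited natural log scale (vertical axis), as medians with quartiles over cells for each of the 12 antibodies. The cDC1s are the only class with a median XCR1 value above 1, at 1.26 in naive and 1.13 in papain cells. Their medians for CD301b and MHC class II are the lowest on this scale, which is relative to the other antibodies of a cell.

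The mRNA of 4 of the 6 marker genes was higher in cDC1s than in each other class of both libraries, that is, above all 8 values. Of 6668 genes with a mean of at least 10 CPM in both libraries, 12.7% lay above all 8 values by any size and 24.0% below them. Only 1 of the 6 markers, Irf8, passed that filter, so the 4 cannot be set against these shares. mRNA levels are given as CPM, the UMIs of a gene per 1000000 UMIs of all genes, summed over the cDC1s of a library. Irf8, the transcription factor that sets the cDC1 fate, was at 566 CPM in naive and 830 CPM in papain cDC1s, against 157 to 373 and 208 to 530 in the other classes. It had a UMI in 86.2% and 91.1% of the cDC1s. Cadm1, an adhesion molecule, was at 27.5 and 13.0 CPM, against 5.78 to 23.1 and 0.81 to 9.26.

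The genes of the surface receptors themselves were sparse. Xcr1 was at 16.9 CPM in naive and 9.44 CPM in papain cDC1s, which are 160 and 29 UMIs, and at 0.56 to 6.94 and 0.31 to 0.67 CPM in the other classes. A UMI of Xcr1 was found in 9.52% of naive cDC1s (exact interval 7.25 to 12.2) and in 6.81% of papain cDC1s (3.94 to 10.8), and in 0.68 to 5.02% and 0.44 to 1.36% of the cells of other classes. So most cells with the XCR1 protein had no UMI of its gene. Clec9a was at 5.48 and 10.1 CPM, against 0 to 2.60 and 0.02 to 0.22 elsewhere. Tlr3, the receptor for double-stranded RNA, had 10 UMIs in naive and none in papain cDC1s.

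Itgae, which encodes CD103, went with T cell mRNA. It had 77 UMIs in naive and 2 in papain cDC1s, or 8.11 and 0.65 CPM, and 87.0% of the naive UMIs lay in 52 cells that are rich in T cell transcripts and are described further on. Without cells that carried the study's label for a UMI of Cd3e or Trac, naive cDC1s had 1.1 CPM, and the other classes had 0.19 to 0.87 with all their cells. The CD103 protein thus had almost no counterpart in mRNA outside those cells at this depth.

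Other regulators of cDC1s differed less from the rest. Batf3, which IRF8 works with, was at 241 and 381 CPM, against 208 to 241 and 196 to 266, so it stood above the other classes only in the papain library. Relb, the NF-kB subunit of mature DCs, was at 666 and 1085 CPM, against 469 to 576 and 496 to 727. Flt3, the receptor for the DC growth factor FLT3L, was at 230 and 209 CPM, against 90.5 to 173 and 180 to 202. Among 24 transcription factors, Irf8, Relb and Cbfa2t3 were above all 8 values of the other classes, and 8 were below all of them, beside the 12.7% and 24.0% of all genes. At a 2-fold difference from each other class none was higher in either library, and 4 were lower in naive and 1 in papain cDC1s. Those 8 included Irf4, the cDC2 factor, at 19.4 and 26.7 CPM against 41.4 to 64.7 and 47.4 to 78.7, and Zeb2, at 33.2 and 43.0 CPM against 66.6 to 327 and 88.5 to 216.

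Read over the whole transcriptome, cDC1s stood at least 2-fold above each other class for 84 of 7127 genes in the naive library (1.18%) and for 90 of 6903 in the papain library (1.3%). They stood at least 2-fold below each class for 126 (1.77%) and 185 (2.68%). The higher calls shared 37 genes, 44.0% of the naive and 41.1% of the papain list. The lower calls shared 44 genes, 34.9% and 23.8% of the lists.

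The gene that set cDC1s furthest apart in both libraries was Laptm4b, a lysosomal membrane protein. It was at 148 CPM in naive and 213 CPM in papain cDC1s, against 9.97 to 15.4 and 17.7 to 22.4. Txndc17, a thioredoxin-related protein, was at 1666 and 1980 CPM, against 255 to 345 and 383 to 470. The tetraspanin-like Tm4sf5 was at 163 and 172 CPM, against 20.3 to 28.2 and 13.7 to 48.8.

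The next genes in that order included a noncoding RNA, a nuclease and a Kruppel-like factor. Gas5, the noncoding host of small nucleolar RNAs, was at 2879 and 2296 CPM, against 619 to 820 and 538 to 656. Dnase1l3, a secreted DNase that degrades DNA from dead cells, was at 942 and 1364 CPM, against 48.5 to 286 and 97.1 to 239. Klf3 was at 77.8 and 142 CPM, against 12.4 to 23.6 and 22.2 to 31.9. Aif1, an actin-binding protein of myeloid cells, was at 383 and 615 CPM, against 103 to 125 and 117 to 142.

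The most abundant gene that marked cDC1s was Ccl5, a chemokine that attracts T cells and other leukocytes. It took 30496 CPM in naive and 19343 CPM in papain cDC1s and was found in 99.5% and 100% of the cells. The other classes had 4775 to 11737 and 6290 to 7993 CPM. Epsti1, an interferon-inducible gene, was at 7518 and 6329 CPM, against 991 to 2067 and 1872 to 2274. The tetraspanin Cd81 was at 172 and 253 CPM, against 22.2 to 79.1 and 42.0 to 92.2. Il12b, the p40 chain of IL-12, is one of the cytokines described below that were also highest here.

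The genes lowest in cDC1s against the other classes included signalling molecules. Efnb2, a membrane-bound ephrin, was at 17.0 CPM in naive and 12.7 CPM in papain cDC1s, against 90.9 to 109 and 55.7 to 104. Gpr183, the oxysterol receptor that positions cDC2s, was at 38.3 and 42.0 CPM, against 117 to 343 and 471 to 540. Without T-labelled cells the naive value was 19.5 CPM.

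Inflammatory mediators were among them. Il1b, an inflammatory cytokine, was at 61.0 and 82.7 CPM, against 173 to 789 and 234 to 454. Ccl17, a chemokine for CCR4-bearing T cells, was at 61.6 and 121 CPM, against 237 to 418 and 385 to 847. The transcription factor Ets2 was at 23.6 and 11.7 CPM, against 119 to 135 and 40.7 to 54.1, and the neutrophil-attracting chemokine Cxcl2 at 43.9 and 19.5 CPM, against 125 to 199 and 98.4 to 296.

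**Figure D2:**
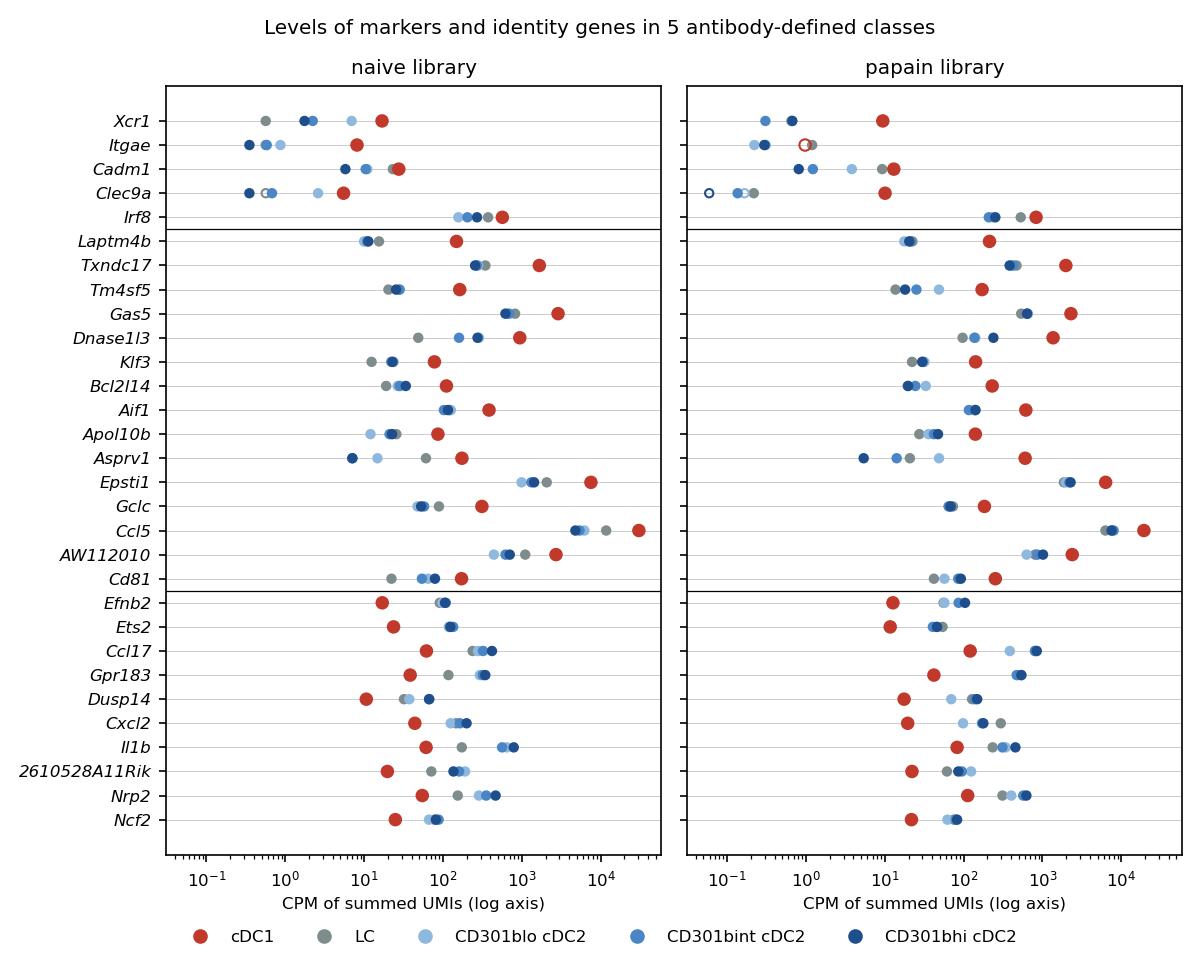
Levels of genes that separate cDC1s from the other classes, in CPM on a log axis, for each class of the naive and the papain library, with open circles at the level of 3 counts where a class had fewer. For the genes on the high side, such as Laptm4b (148 and 213 CPM) and Ccl5 (30496 and 19343 CPM), the cDC1 points lie above all 8 points of the other classes, and for those on the low side, such as Efnb2 (17.0 and 12.7 CPM), below all of them.

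Genes of MHC class I presentation were higher in cDC1s than in the other classes by small ratios. Of 28 genes on that list 26 passed the filter in both libraries, and 17 of these were above all 8 values of the other classes and none below, where 12.7% of all genes were above and 24.0% below. At a 2-fold difference from each other class, 1 of 28 was higher and 1 lower in naive cDC1s, and none of 26 in either direction in papain cDC1s. Their summed level was 23240 CPM in naive and 27803 CPM in papain cDC1s, against 14682 to 17418 and 17266 to 21969 in the other classes. H2-K1, a class I heavy chain, was at 4329 and 5086 CPM, against 2765 to 3506 and 3171 to 4365. B2m, its light chain, was at 5522 and 5472 CPM, against 3371 to 4313 and 3332 to 4594.

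Genes of the peptide supply had similar patterns. Tap1, a subunit of the peptide transporter, was at 313 and 384 CPM, against 130 to 146 and 157 to 249. Psmb9, a subunit of the immunoproteasome, was at 749 and 888 CPM, against 244 to 399 and 445 to 503. Between conditions the list moved little in cDC1s. Psme2, a proteasome activator subunit, went from 180 CPM in naive to 398 CPM in papain cells, and 25 of the 26 genes that passed the filter stayed within 2-fold.

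Genes of maturation and migration lay on both sides of the other classes. Of 24 on the list 23 passed the filter in both libraries. Of these 5 were below all 8 values, Ccr7, Cd83, Ccl22, Ccl17 and Samsn1, and 4 were above them, Traf1, Relb, Il15ra and Spint2. Of all genes 24.0% were below and 12.7% above, so these counts are not read as a trait of the list. Ccr7, the receptor that guides DCs to the node, was at 1995 CPM in naive and 2342 CPM in papain cDC1s, against 3266 to 4444 and 3096 to 3309, and had a UMI in 98.1% and 99.6% of the cells. Cd83, a maturation marker, was at 762 and 859 CPM, against 1511 to 2121 and 1197 to 1491. Between conditions 23 of the 24 passed the filter and none reached 2-fold, with a median log2 ratio of 0.29. Costimulatory Cd86 was at 85.5 and 117 CPM, against 123 to 182 and 213 to 267 in the other classes.

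Between papain and naive mice, the list with the most genes higher in papain cDC1s was that of the interferon-stimulated genes (ISGs). Isg15, a ubiquitin-like protein made in response to interferon, rose from 49.4 CPM in naive to 336 CPM in papain cDC1s, which is 6.81-fold (log2 2.77, interval 2.61 to 2.93). A UMI of Isg15 was found in 28.9% of naive cDC1s (exact interval 25.2 to 32.8) and in 72.8% of papain cDC1s (66.6 to 78.4). With each cell thinned to 8690 UMIs the shares were 22.2% and 68.3%. Of 6781 genes with a mean of at least 10 CPM over both groups, 148 were at least 2-fold higher with papain (2.18%) and 263 at least 2-fold lower (3.88%), and of 31 ISGs on the list 17 passed that filter, 13 of them higher and none lower. Some passed only through their papain level, so the 13 are a description of the list and not a share of it.

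The ISGs fell into sensors, effectors and regulators. Among effectors that act on virus entry and RNA, Ifitm3, a membrane protein that blocks virus fusion, rose from 15.1 to 148 CPM, which is 9.85-fold (log2 3.30, interval 3.03 to 3.58). In the naive library 60.8% of its UMIs were in 5 cells, and the share of cells with a UMI was 6.92% in naive and 57.4% in papain cDC1s. Oasl1 and Oasl2, relatives of the 2′-5′ oligoadenylate synthetases, rose from 10.0 to 56.0 CPM and from 3.58 to 38.1 CPM. Rsad2, which encodes viperin, rose from 29.3 to 77.5 CPM.

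The guanylate-binding proteins, GTPases that attack the membranes around intracellular microbes, were higher too. Gbp2 rose from 77.7 to 232 CPM (log2 1.58, interval 1.43 to 1.73) and Gbp5 from 79.7 to 165 CPM (1.05, 0.89 to 1.22). Zbp1, a sensor of Z-form nucleic acids, rose from 21.5 to 74.5 CPM. Ifit1 rose from 6.21 to 23.8 CPM and Xaf1 from 9.37 to 34.8 CPM.

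Regulators of the interferon response were in the same group. Irf7, the factor that amplifies type I interferon, rose from 9.16 to 34.2 CPM, and Irf9, a subunit of the ISGF3 complex, from 24.1 to 64.8 CPM. Usp18, which removes ISG15 from proteins and dampens the receptor, rose from 35.3 to 75.2 CPM. Stat2, at 16.6 and 30.3 CPM, did not reach 2-fold. Mx1 was at 74.2 and 69.3 CPM and Bst2, or tetherin, at 150 and 250 CPM.

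As a list, the 17 ISGs had a median log2 ratio of 1.58, and 1.57 without T-labelled cells, beside a median of 0.03 over all 6781 genes. Since some of the 17 passed only through their papain level, this median describes the list and is raised by the filter. It was lower at a mean of 50 CPM or with 10 CPM added, as given in the closing section. The summed level over all 31 ISGs was 755 CPM in naive and 1903 CPM in papain cDC1s. In the other classes it was 720 to 894 CPM and 1166 to 1704 CPM. The same 17 genes, which passed the filter on their cDC1 levels, had 7 higher and 1 lower in Langerhans cells, with a median of 0.93. They had 10 higher and none lower in each cDC2 group, with medians of 1.03, 1.12 and 1.11 from low to high CD301b. Since cDC1 levels chose the genes, these counts and medians are not an even comparison of the classes. Each class had its own naive and papain cells, but all classes shared the same 2 libraries, and whether cDC1s moved more than the others was not tested.

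**Figure D3:**
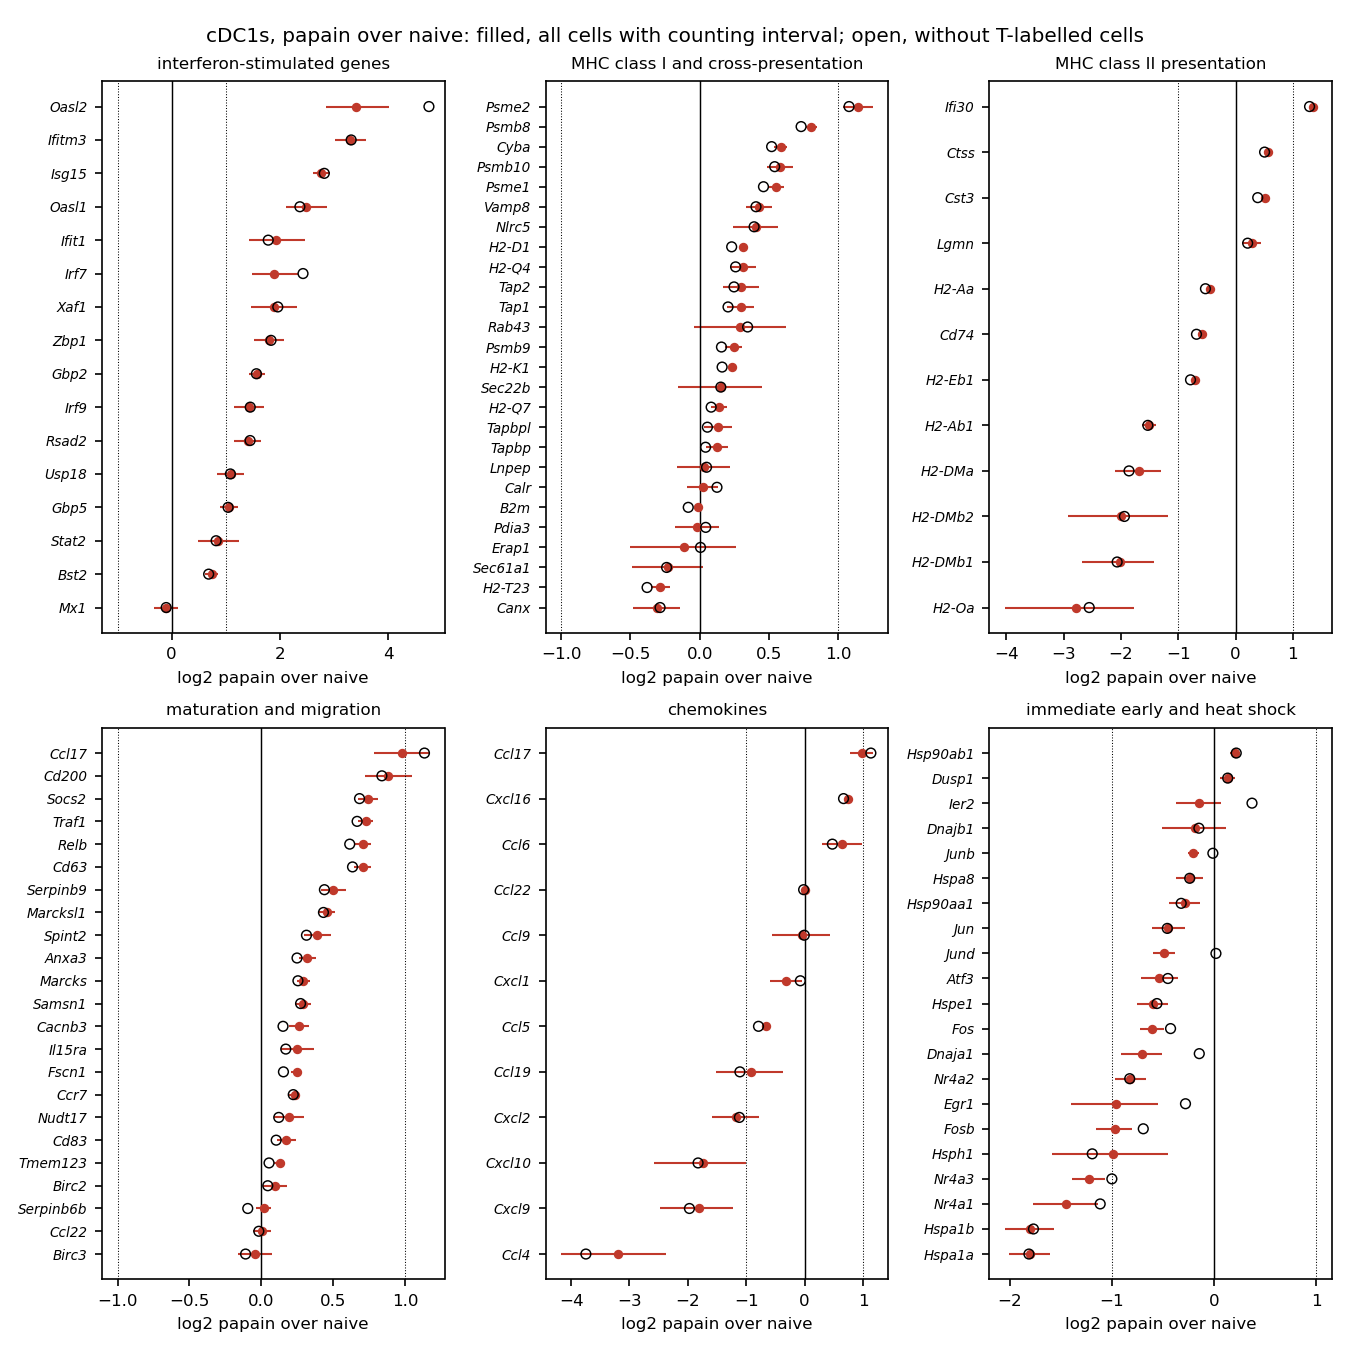
Log2 ratio of papain over naive cDC1s for the genes of 6 lists that passed the filter (1 ISG is not shown), with filled points for all cells with their 95% counting interval and open points for cells without the T label. The ISGs lie mostly to the right of the dotted 2-fold line, up to 3.41 for Oasl2, the maturation genes lie within 2-fold, and the MHC class II genes reach from 1.36 for Ifi30 to -2.79 for H2-Oa.

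The promoters of 4 ISGs are shown because these genes were higher together and differ in what they carry. The 250 bases before each gene start are from RefSeq, build GRCm38.p6, read 5′ to 3′ on the gene's strand. Capitals mark matches to GAAA, any 2 bases and GAAA again, on either strand, the core of the element bound by interferon-stimulated transcription factors, with overlapping matches merged:
Isg15, chr4:156200819-156201068, minus strand: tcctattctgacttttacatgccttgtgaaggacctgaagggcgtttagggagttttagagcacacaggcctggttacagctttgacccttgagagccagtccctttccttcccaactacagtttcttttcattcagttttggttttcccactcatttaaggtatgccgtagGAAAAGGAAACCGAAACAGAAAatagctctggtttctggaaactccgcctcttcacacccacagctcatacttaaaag
Gbp2, chr3:142620413-142620662, plus strand: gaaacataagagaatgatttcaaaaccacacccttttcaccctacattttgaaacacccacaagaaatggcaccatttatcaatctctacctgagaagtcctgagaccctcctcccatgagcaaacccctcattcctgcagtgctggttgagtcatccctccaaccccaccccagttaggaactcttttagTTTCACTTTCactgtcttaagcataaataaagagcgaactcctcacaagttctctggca
Rsad2, chr12:26456453-26456702, minus strand: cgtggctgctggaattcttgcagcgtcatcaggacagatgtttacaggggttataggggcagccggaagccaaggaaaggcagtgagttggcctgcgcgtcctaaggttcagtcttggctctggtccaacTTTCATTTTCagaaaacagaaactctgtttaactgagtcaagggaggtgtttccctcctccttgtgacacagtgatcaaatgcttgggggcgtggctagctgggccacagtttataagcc
Ifitm3, chr7:141010745-141010994, minus strand: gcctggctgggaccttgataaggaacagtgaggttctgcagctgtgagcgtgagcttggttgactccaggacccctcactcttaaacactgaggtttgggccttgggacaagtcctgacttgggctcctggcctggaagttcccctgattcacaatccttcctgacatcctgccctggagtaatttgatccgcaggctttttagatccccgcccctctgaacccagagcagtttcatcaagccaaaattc
Isg15 had 3 overlapping matches, the first starting 78 bases before the gene start. Gbp2 had 1 match at 59 bases, and Rsad2 had 1 at 120 bases. Ifitm3, with a larger ratio than any of them, had none in this window. The motif was found in 14 of the 24 ISGs with an entry (58.3%), in 5 of the 11 of them that were at least 2-fold higher in cDC1s (45.5%), and in 936 of 27025 promoters of all genes (3.46%). A match is a match of letters and does not show binding.

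Other genes with high ratios included interferon-inducible genes. Ifi27l2a, an ISG outside the list, rose from 31.9 to 272 CPM, which is 8.52-fold (log2 3.09, interval 2.90 to 3.29). The related DNA-binding proteins Ifi205, Ifi209 and Ifi211 were higher as well. Ifi205 rose from 21.4 to 75.5 CPM, Ifi209 from 34.5 to 116 CPM and Ifi211 from 27.3 to 79.4 CPM. Ifi211 was at 0.77 to 5.74 CPM in the other naive classes and 4.90 to 11.8 CPM in the other papain classes, so its level set cDC1s apart in both libraries.

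Of 14 genes of costimulation and T cell ligands that passed, 2 were higher, 1 was lower and 11 stayed within 2-fold, with a median log2 ratio of 0.20. Cd274, which encodes the inhibitory ligand PD-L1, rose from 49.5 to 161 CPM (log2 1.71, interval 1.52 to 1.89), and its ratios in the other classes were 0.35 to 1.33. Pdcd1lg2, which encodes PD-L2, rose from 6.11 to 30.3 CPM. Icosl, the ligand of ICOS, fell from 267 to 129 CPM.

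The highest ratios outside that list included other surface proteins. Cd1d1, which presents lipids to NKT cells, rose from 21.3 to 119 CPM. Pirb, an inhibitory receptor for MHC class I, rose from 50.03 to 142 CPM, and Dpp4, the peptidase CD26, from 28.1 to 86.6 CPM, with log2 ratios of -0.28 to 0.82 for Dpp4 in the other classes.

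Fabp5, a fatty acid-binding protein, had the largest gain in CPM among the genes named by size of ratio. It rose from 179 to 1009 CPM (log2 2.50, interval 2.41 to 2.58) and was still below the other classes, at 346 to 1331 CPM in naive and 1653 to 4562 CPM in papain mice. Asprv1, an aspartic protease best known from skin, rose from 174 to 603 CPM, against 7.06 to 60.8 and 5.40 to 48.9 CPM in the other classes. Bcl2l14, a BCL2 relative that also set cDC1s apart, rose from 110 to 230 CPM, and its log2 ratio was 0.94 without T-labelled cells. Of 14 genes of sterol synthesis and efflux that passed, Hmgcs1 rose from 62.8 to 142 CPM and Fdps, both enzymes of the mevalonate pathway, from 13.9 to 41.7 CPM. The cholesterol carrier Apoe fell from 14.96 to 7.16 CPM.

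Of the 12 genes of MHC class II presentation that passed, 5 were lower in papain cDC1s and 1 was higher. Of all genes 3.88% were lower and 2.18% higher. Some of the 5 passed only through their naive level, so they describe the list and are not a share of it. H2-Ab1, the β chain of I-A, fell from 556 to 194 CPM (log2 -1.52, interval -1.64 to -1.39), and 32.2% of the naive and 51.6% of the papain UMIs lay in 5 cells. The peptide-loading chains H2-DMa and H2-DMb1 fell from 59.8 to 18.6 CPM and from 31.7 to 7.81 CPM. H2-Oa, a chain of the inhibitor of that loading, fell from 18.0 to 2.60 CPM and H2-DMb2 from 16.9 to 4.23 CPM. The more abundant chains moved less.

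H2-Aa was at 2050 and 1509 CPM, H2-Eb1 at 1657 and 1016 CPM, and the invariant chain gene Cd74 at 4498 and 3014 CPM. Ifi30, an interferon-inducible thiol reductase that unfolds antigens, went the other way and rose from 624 to 1599 CPM. The median log2 ratio over the 12 genes was -0.64, and over the 8 genes of at least 50 CPM it was -0.081. Medians of the same 12 genes, which passed on their cDC1 levels, were -0.76 in Langerhans cells. In the cDC2 groups they were -0.60, -1.16 and -1.26 from low to high CD301b. At 2-fold, 3 of the 12 genes were lower and 1 was higher in Langerhans cells. In the cDC2 groups 4, 7 and 8 were lower, and 1 was higher in the group with high CD301b. Lower MHC class II mRNA was thus not particular to cDC1s.

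Cytokine genes showed few differences between conditions. Il12b was at 330 CPM in naive and 279 CPM in papain cDC1s (log2 -0.24, interval -0.35 to -0.13), well above 108 to 158 CPM and 39.0 to 49.6 CPM in the other classes. It had a UMI in 52.1% of naive (exact interval 47.9 to 56.2) and 39.1% of papain cDC1s (32.9 to 45.7), against 18.1 to 29.5% and 11.8 to 19.3% elsewhere. After thinning the cDC1 shares were 46.6% and 35.8%. Il12a, the other chain of IL-12, was at 0.42 and 0.65 CPM, too few UMIs to compare.

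Il15, which sustains CD8+ T and NK cells, was at 178 and 197 CPM, and Il27 at 10.6 and 13.995 CPM. The other classes had 0.35 to 3.76 and 1.03 to 1.19 CPM of Il27. Among the 10 cytokine genes that passed, Osm, which encodes oncostatin M, rose from 7.27 to 21.8 CPM and Flt3l fell from 19.8 to 4.88 CPM (log2 -2.02, interval -2.89 to -1.26). Their median log2 ratio was -0.08.

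Chemokine genes had 4 of 12 lower and none higher, beside 3.88% of all genes lower, and a median of -0.49. Some of the 4 passed only through their naive level. Without T-labelled cells the median over the same 12 genes was -0.43. It was -0.074 when those cells were left out before the filter, which changed the genes that passed. In Langerhans cells 5 of the same 12 genes were higher and 2 lower, with a median of 0.97. The cDC2 groups had 3, 2 and 1 lower and 0, 1 and 1 higher from low to high CD301b. Their medians were -0.09, -0.02 and -0.15. In naive cDC1s most of the UMIs of Ccl4 and Cxcl9 came from 5 cells, 84.2% and 79.0%. Ccl4 fell from 35.9 to 3.91 CPM and Cxcl9, an interferon-γ-induced attractant of T cells, from 28.7 to 8.14 CPM. Cxcl10 fell from 17.5 to 5.21 CPM, although many other interferon-inducible genes were higher. Ccl5 was at 30496 and 19343 CPM (log2 -0.66) and Ccl22, another CCR4 ligand, at 856 and 858 CPM, below the other classes in both libraries.

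Some stress and early response genes were at least 2-fold lower with papain. The inducible HSP70 genes Hspa1a and Hspa1b fell from 261 to 74.9 CPM and from 177 to 50.8 CPM. The immediate early nuclear receptors Nr4a1 and Nr4a3 fell from 83.3 to 30.6 CPM and from 276 to 118 CPM. These were 4 of 21 genes of the list that passed, beside 3.88% of all genes lower, and none was higher. The median of the list was -0.60, or -0.43 without T-labelled cells. Of the same 21 genes, 1 was lower in Langerhans cells and 9, 6 and 5 in the cDC2 groups from low to high CD301b. Their medians were -0.30 in Langerhans cells and -0.62, -0.49 and -0.42 in the cDC2 groups. The lower levels were thus not particular to cDC1s.

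The lowest ratios among genes of at least 50 CPM also included Mt2, a metallothionein, which fell from 87.0 to 22.5 CPM (log2 -1.95), and Eprs, a tRNA synthetase, which fell from 110 to 20.2 CPM (-2.44, or -1.83 without T-labelled cells). At the other end, Phf11b rose from 72.9 to 234 CPM, Glipr2 from 155 to 490 CPM and Adap1, an ARF GTPase-activating protein, from 50.5 to 137 CPM. The ratios of Phf11b in the other classes were 0.28 to 1.28.

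Genes of adhesion and of the TGF-β pathway were also among the lower ones. Itgb8, the integrin chain that activates latent TGF-β, fell from 39.9 to 10.1 CPM and Tgfbr1, a receptor for it, from 27.8 to 11.1 CPM. Itgax, which encodes CD11c, fell from 18.6 to 5.86 CPM. Mfge8, a bridge to dying cells, fell from 405 to 138 CPM (log2 -1.55, interval -1.70 to -1.40). Epcam, the gene of the CD326 antigen, fell from 29.2 to 7.49 CPM, beside the lower CD326 antibody median given above.

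The lists of NF-kB subunits, survival genes and cell cycle genes had no gene past 2-fold in cDC1s. Their medians were 0.14 over 18 genes, 0.25 over 14 and -0.12 over 8. Glycolysis and hypoxia genes had a median of 0.02 over 13, with Hk2 alone lower. Of 8 pattern recognition genes that passed, Ddx58, the RNA sensor RIG-I, rose from 7.48 to 15.6 CPM and Tmem173, the DNA pathway adaptor STING, from 18.5 to 39.1 CPM. The receptors Tlr1, Tlr2, Tlr6, Tlr7 and Tlr9 were under the filter.

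A set of naive cells classed as cDC1 carried T cell transcripts, and several of the lowest ratios rested on it. The study's label for a UMI of Cd3e or Trac was on 78 of 578 naive cDC1s, 13.5% (exact interval 10.8 to 16.6), and on 11 of 235 papain cDC1s, 4.68% (2.36 to 8.22). In the other classes the share was 2.97 to 5.78% in naive and 3.83 to 7.26% in papain mice. The summed level of 11 T cell genes was 286 CPM in naive cDC1s and 40.4 CPM in papain cDC1s, against 22.6 to 112 and 14.4 to 31.0 CPM in the other classes. Without the labelled cells it was 26.9 and 5.17 CPM.

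Within the naive cDC1s, 52 cells (8.997% of them) had at least 15 UMIs over the 5 T cell genes Cd3d, Cd3e, Cd3g, Trac and Trbc2, and 51 of these carried the label. In the papain library 3 cells did. The limit of 15 was set after the counts were seen, and 3 of the naive cells lay within 3 UMIs of it. Per cell, the median Ccl5 level of the 52 was 481 CPM, against 29668 CPM in unlabelled naive cDC1s, and their median Irf8 level was 0. Their median XCR1 antibody value was 0.363, against 1.31, and their CD172a value 1.02, against 0.116. Their CD103 value, 1.86, was above the 1.26 of the unlabelled cells.

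The mRNA of these 52 cells held genes of interleukin-17-producing T cells. Summed over them, Trbc2, a T cell receptor constant chain, was at 562 CPM, Il7r at 677 CPM, Icos at 676 CPM, Rora at 401 CPM, Il17a at 65.6 CPM and Blk at 83.9 CPM. Tcrg-C1, a constant gene of the γδ receptor, was at 52.7 CPM and Trdc at 1.1 CPM. Emb, an adhesion molecule, was at 873 CPM. The cDC1 label was thus not borne out by the median Irf8, Ccl5 and XCR1 values of these cells, although 11 of them had a UMI of Xcr1, and they are called here by their rule. Sums over them still held 6855 CPM of Ccl5 and 155 CPM of Irf8. The 27 labelled naive cells with fewer T cell UMIs had a median Ccl5 level of 26102 CPM and an XCR1 value of 1.30, near those of unlabelled cells.

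The effect on the ratios was large for a few genes. The 52 cells held 84.1% of the naive cDC1 UMIs of Emb, 87.4% of those of Icos, 77.7% of those of Rora and 72.8% of those of Hk2. Emb fell from 102 to 7.16 CPM with all cells, and its log2 ratio of -3.83 was -2.31 without labelled cells. Fosl2 went from -2.78 to -1.57 and Cwc25 from -1.68 to -0.52. Without labelled cells 139 of the 148 higher calls and 190 of the 263 lower calls were still past 2-fold. When the filter too was applied to unlabelled cells, 176 genes were higher and 183 lower, so the share of higher calls went from 36.0% to 49.0%. Of all 411 calls 9, each lower with all cells, had the opposite sign without labelled cells, 1 of them past 2-fold. That gene, Ramp3, chosen for its values, was at 64.2 and 26.7 CPM, and its log2 ratio of -1.27 became 1.69. Isg15, at 48.6 and 343 CPM, and Ifitm3, at 15.3 and 153 CPM, were little moved. Macrophage genes summed to 59.6 and 55.3 CPM in cDC1s, below 83.7 to 155 and 65.8 to 77.1 in the other classes, and the cDC2 genes Mgl2, Clec10a and Cd209a were at 0 in papain cDC1s.

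**Figure D4:**
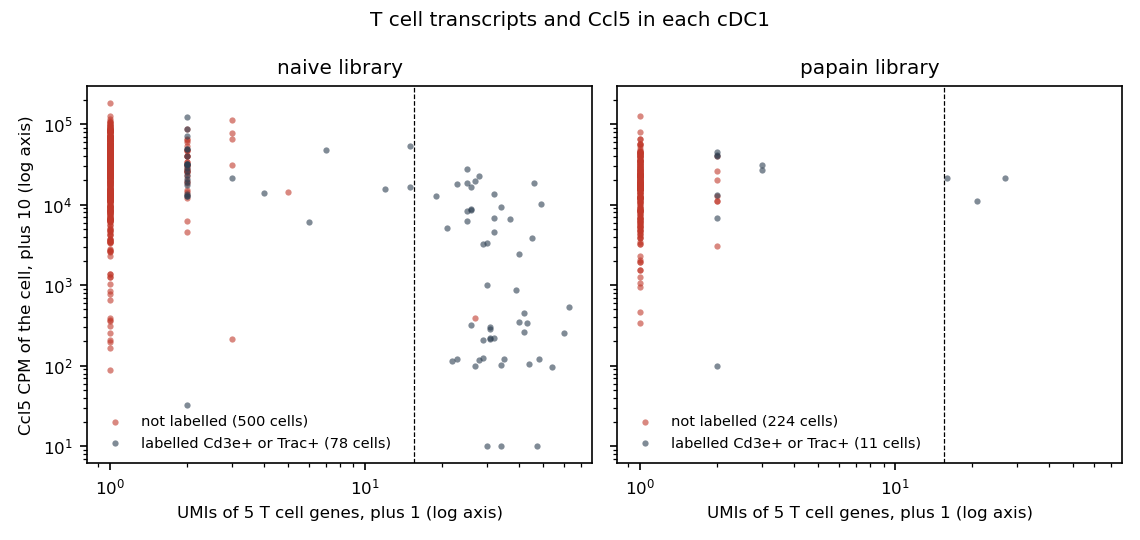
UMIs of 5 T cell genes in each cDC1, plus 1, against the Ccl5 CPM of the cell, plus 10, both on log axes, with labelled cells dark and unlabelled cells red and the limit of 15 UMIs dashed. In naive mice 52 cells lie to the right of the limit, many of them far below the Ccl5 level of the other cells, and in papain mice 3 cells do.

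A second small set of naive cDC1s had little Ccr7 and held a large share of the few Xcr1 and Clec9a UMIs. Among the 500 naive cells without the T label, 14 had at most 2 Ccr7 UMIs, and 25 more had 3 or 4. This limit was also set after the counts were seen. The 14 cells had 304 CPM of Xcr1, against 7.6 CPM in the other 486, and held 39.4% of all naive cDC1 UMIs of Xcr1. These UMIs came from 3 of the 14 cells, so the sums over the set rest on a few cells. Clec9a was at 96.6 CPM against 2.7 CPM, and Tlr3 at 43.5 CPM against 0.1 CPM. The regulators of cDC1s did not follow, since the 14 cells held 2.46% of the Irf8 and 1.57% of the Batf3 UMIs of naive cDC1s and had 174 CPM of Batf3, against 258 CPM. Cadm1 was at 77.3 CPM against 27.7 CPM, with 6.13% of its UMIs in the 14 cells.

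Sums of some other genes were higher in the 14 cells. Wdfy4, needed for cross-presentation, was at 135 CPM against 6.5 CPM, Cd8a at 150 CPM against 10.1 CPM, and Naaa, an acid amidase, at 492 CPM against 4.2 CPM. Some sums of MHC class II mRNA were higher, with H2-Ab1 at 4983 CPM against 422 CPM and H2-DMa at 372 CPM against 54.4 CPM. Cd74 was at 12690 CPM against 4481 CPM in sum, but its median per cell was 1470 CPM against 2198 CPM, so that sum too came from a few cells. The median H2-Aa level per cell was also lower in the 14 cells, at 541 CPM against 986 CPM. Fscn1, the actin bundler of migrating DCs, was lower, at 763 CPM against 2638 CPM, as was Laptm4b, at 33.8 CPM against 165 CPM. Irf8 was at 637 and 617 CPM. The histone gene Hist1h2ap was at 1840 CPM against 23.3 CPM.

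In the papain library 4 unlabelled cDC1s had at most 2 Ccr7 UMIs, and none of them had a UMI of Xcr1. Their median XCR1 antibody value was 0.881, and that of the 14 naive cells was 0.787, against 1.32 in the other 486. With so few cells the makeup of this set in papain mice was not detectable at this depth. Lyz2, the lysozyme gene of monocytes and macrophages, fell from 108 to 8.46 CPM over all cDC1s, and 71.4% of its naive UMIs were in 5 cells. It was at 425 CPM in the 14 cells and 87.3 CPM in the other 486. The summed level of the monocyte and neutrophil genes, Lyz2 among them, also fell in each cDC2 group, as given at the end.

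**Figure D5:**
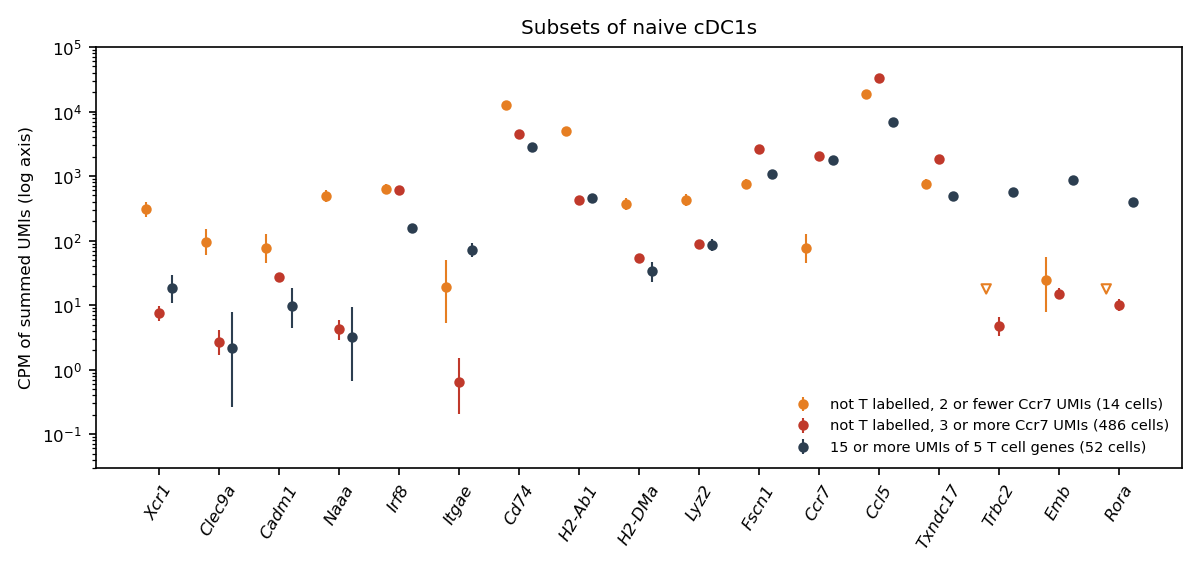
Levels of genes in CPM of summed UMIs, on a log axis with 95% counting intervals, in 3 sets of naive cDC1s, the 14 unlabelled cells with at most 2 Ccr7 UMIs, the other 486 unlabelled cells and the 52 cells with at least 15 T cell UMIs. Open triangles are upper limits where no UMI was found. Xcr1 (304 CPM), Clec9a (96.6 CPM) and Naaa (492 CPM) are highest in the 14 cells, and Emb (873 CPM) and Trbc2 (562 CPM) in the 52 cells.

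cDC1s differed among themselves in surface CD103, which is a marker of cDC1s from epithelia. They were divided at the median CD103 antibody value of each library, 1.30 in naive and 0.838 in papain mice, and compared over genes with a mean of at least 50 CPM. In naive mice 21 of 2380 genes were at least 2-fold higher above the median (0.882%) and 7 were lower (0.294%). In papain mice 2 of 2422 were higher (0.0826%) and 8 lower (0.33%). Of the 78 labelled naive cells 55 lay above the median and 23 below.

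The genes highest above the naive median were those of the T-rich cells. Icos was at 132 CPM above and 20.5 CPM below, and its log2 ratio of 2.69 was -0.99 without labelled cells. Emb was at 163 and 41.4 CPM, and its ratio of 1.97 was -2.15 without labelled cells. Itgae itself was at 12.9 and 3.35 CPM, a ratio of 1.95 that was -1.38 without them. So the mRNA of CD103 did not follow its protein among unlabelled cells, at counts this low.

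Most MHC class II genes were within 2-fold between the CD103 groups. Of 15 on the list, 9 had a mean of at least 50 CPM in naive mice, with 2 lower above the median and none higher, and 8 in papain mice, with 1 lower and none higher. Their median log2 ratios were -0.22 and -0.29. H2-Ab1 was at 292 CPM above and 816 CPM below the naive median (log2 -1.48, or -1.62 without labelled cells), and at 102 and 286 CPM in papain mice (-1.49).

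These sums of H2-Ab1 rested on few cells. In naive mice 5 cells held 41.0% of its UMIs above and 43.5% below the median, and in papain mice 40.0% and 69.7%. The naive median per cell was 96.4 CPM above and 117 CPM below. H2-DMa was at 39.5 and 79.9 CPM in naive mice (-1.02). The abundant H2-Aa had ratios of -0.22 in naive and -0.46 in papain mice, and Cd74 of -0.18 and -0.62. Gm2a, a lysosomal lipid transfer protein outside the list, was at 51.6 and 137 CPM in naive mice (-1.41) and had a ratio of -0.51 in papain mice.

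In papain mice the ISGs Isg15 and Ifitm3 had lower levels in the CD103-high cells. No count or median of the ISG list is given for the CD103 groups, so these genes do not stand for the list. Isg15 was at 233 CPM above and 438 CPM below the median (log2 -0.91), and Ifitm3 at 93.0 and 203 CPM (-1.13). In naive mice the Isg15 ratio was -0.12. These are sums over cells of 1 library each, and the difference between them was not tested.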

How the data were processed

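Cells had been encapsulated with the 10x 3′ v3 chemistry and stained with 12 TotalSeq antibodies. The submitters' processing notes name Cell Ranger 3.0.1, the build mm10 and Partek. The authors deposited expression as log2(CPM + 1) per cell over 18049 genes, where CPM is the UMIs of a gene per 1000000 UMIs of the cell, and antibody values as the natural log of 1 plus the ratio of the antibody's count, plus 1, to the geometric mean over the 12 antibodies. The authors also deposited the antibody counts of each cell. UMIs were recovered from the log2 values (100% of values up to 50 UMIs were whole within 0.02), which keeps the authors' total, unlisted genes included, as the denominator. Classes are the authors' antibody clusters. The label for T cell mRNA equals a UMI of Cd3e or Trac in every cell. Barcodes shared by both libraries numbered 2, none in a cDC1. No doublet caller was run here, and none is named for these cells in the sources used here.

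UMIs were summed over the cells of a class and library, and the ratio of CPM was taken. Papain was set against naive over genes with a mean of at least 10 CPM, and cDC1s against each of the 4 other classes over genes with a mean of at least 10 CPM over the 5 classes. A gene counted when it differed by at least 2-fold. A gene low in 1 group could pass through its level in the other, so counts over a list only describe that list. Cells and genes are not replicates, so no test was run. Intervals are exact Poisson, Clopper-Pearson or conditional binomial ones at 95%, and since each UMI comes from 1 library they cover counting error only. A count of 0 was set at a floor of 3 counts over the group. For shares after thinning, each cell was drawn down to 8690 UMIs, which left out 49 naive and 33 papain cDC1s.

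The members and the 31 gene lists were chosen with earlier results of these data known. Of their 482 genes 28 are not in the files used, and 1 ISG is counted in its list but not reported by name here. Genes named by size were the 15 highest and 15 lowest ratios with a mean of at least 50 CPM and the same direction without T-labelled cells, the 15 genes highest and 10 lowest against all other classes of both libraries, and 5 in each direction for CD103. List medians are given over lists with at least 5 genes past the filter. Other genes named are members of the lists, and genes of the small sets of cells were chosen after their values were seen. The calculations were tested on simulated data. Python 3.11.15, numpy 2.4.6, pandas 2.3.3, scipy 1.17.1 and matplotlib 3.10.9 were used.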

Additional observations from a re-analysis of the deposited data

Results flagged for a closer look

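Elobl, an elongin B-like gene, went opposite ways in cDC1s and in every other class. It fell from 39.2 to 14.3 CPM in cDC1s (log2 -1.45) and rose in the 4 other classes by log2 ratios of 1.80 to 2.92. Mmp7, a matrix metalloproteinase, rose from 4.84 to 16.6 CPM in cDC1s (log2 1.78) and fell in the others, with log2 ratios of -3.86 to -2.34. For Mmp7, 54.3% of the naive and 68.6% of the papain UMIs lay in 5 cDC1s. The difference between classes was not tested for either gene, since each condition is 1 library.

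Antibody values without expression values exist for further cells classed as cDC1, 470 in the naive library (44.8% of 1048) and 54 in the papain library (18.7% of 289). In the other classes the shares of such cells were 27.2% and 10.4%. Over all cells with antibody values, cDC1s were 23.6% of 4433 in naive and 3.53% of 8178 in papain mice. The median XCR1 value of the cells without expression was 1.06 in naive and 1.04 in papain mice, against 1.26 and 1.13 with it, and the CD103 value was 1.31 and 1.04, against 1.30 and 0.838.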

How the results depend on the processing

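No paired analysis was possible because each condition is 1 library and the labels give no replicate numbers. Leaving out cells by their low Ccr7 or T cell UMIs, or the 5 highest cells of a gene, was chosen after seeing the data, and the cause of the shifts below was not tested. Of 320 named genes, 84 were past 2-fold between papain and naive, 58 of these in the same direction under every alternative and 78 without T-labelled cells. None of the 84 changed sign under an alternative. Genes named by size were chosen to keep their sign without T-labelled cells, so that setting could not turn them. Among all 411 calls, 9 did turn sign in it. The 411 genes past 2-fold were 184 with 10 CPM added, 106 at a mean of 50 CPM and 3108 with no filter. The 210 genes that set naive cDC1s apart were 95, 82 and 880, and the 275 in papain mice 103, 90 and 1720. For CD103, the 28 genes in naive mice were 44 between outer tertiles and 12 without labelled cells, and the 10 in papain mice were 36 between outer tertiles and 18 as means over cells. The naive share of 19.0% was 17.5% without labelled cells, 16.9% with an XCR1 gate and 23.6% over all antibody data.

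Over the genes that passed with all cells, leaving out labelled cells gave medians of -0.43 for chemokines and 0.26 for chemokine receptors and integrins. With the filter applied anew to the cells kept, list medians moved as follows. Without labelled cells, MHC class I was 0.16, chemokines -0.074, chemokine receptors and integrins 0.40 (0.18 with all cells) and early genes -0.43. Without T-rich cells they were 0.16, -0.038, 0.42 and -0.42, and with the XCR1 gate 0.15, 0.066, 0.44 and -0.29, and MHC class II was -0.69 without T-rich cells. MHC class II was -0.44 without the deepest cells, -0.47 as a mean over cells and -0.55 without low-Ccr7 cells, and chemokines were -0.66 without the deepest cells. At a mean of 50 CPM, MHC class II was -0.081, chemokines 0.0036, receptors and integrins 0.45 and ISGs 1.09, and ISGs were 1.15 with 10 CPM added. With no filter MHC class I was 0.19, MHC class II -0.70, chemokines -0.93, receptors and integrins -0.84 and the further cDC1-associated genes -0.49, against 0.66 with it.

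Shares of cells with a UMI depended on depth. At 2 or more UMIs, they were 3.81% naive and 2.55% papain for Xcr1, 3.98% and 0% for Itgae, 40.7% and 28.1% for Il12b and 16.3% and 55.7% for Isg15. Thinned naive shares were 6.71% or 7.07% for Xcr1 at 8690 and 11258 UMIs, 4.71% for Itgae at 11258, and 46.6% for Il12b and 22.2% for Isg15 at 8690. Without labelled cells 1.2% of naive cDC1s had Itgae.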

Other observations

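Further gene lists were described in the cDC1s by their counts, beside 2.18% of all genes higher and 3.88% lower with papain. Of 20 further cDC1-associated genes, 7 passed the filter, with Ifi205 higher and a median log2 ratio of 0.66. Naaa was at 16.9 and 11.1 CPM in naive and papain cDC1s, with 79.4% and 97.1% of its UMIs in 5 cells. Of 13 growth factor receptors of DCs that passed, Tgfbr1 and Ifngr1 were lower. Ifngr1 fell from 52.8 to 23.1 CPM, and its log2 ratio of -1.19 was -0.15 without T-labelled cells. Of 24 transcription factors Klf4 alone was past 2-fold, from 111 to 51.7 CPM, and its ratio of -1.11 was -0.57 without labelled cells. Of 8 regulatory DC genes that passed, Itgb8 was lower, and of 3 dead cell uptake receptors, Mfge8 was.

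Summed levels of genes of other cell types in cDC1s mostly lay within the range of the other classes. NK cell genes summed to 27.0 CPM in naive and 26.4 CPM in papain cDC1s, against 9.78 to 57.3 and 21.9 to 87.6 in the other classes. B cell genes summed to 55.0 and 36.5 CPM, against 15.1 to 99.9 and 7.22 to 36.0. cDC2 genes summed to 136 and 97.0 CPM, against 148 to 342 and 156 to 174. Genes of plasmacytoid DCs summed to 121 and 152 CPM, against 81.3 to 258 and 147 to 312. Siglech, Ly6d, Ccr9 and Cox6a2 were at 0 in papain cDC1s. Langerhans cell genes summed to 622 and 236 CPM, against 228 to 961 and 193 to 694, highest in Langerhans cells. The 3 of these genes that passed, Epcam, Mfge8 and Ltc4s, were lower with papain. Genes of monocytes and neutrophils summed to 142 and 19.5 CPM, and Ccr2 among them went from 192 to 1 UMI. In the cDC2 groups, from low to high CD301b, they summed to 776, 736 and 590 CPM in naive mice. In papain mice these groups had 126, 14.6 and 17.9 CPM. Langerhans cells had 35.4 and 44.6 CPM. Of the 13 listed γδ T cell genes 8 had values, and 7 of these were at 0 in papain cDC1s.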
